A study of Mus musculus with 6 samples.

Results

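The response of mouse intestinal organoids to prostaglandin E2 (PGE2) was followed in open chromatin, over every consensus peak of the deposited ATAC-seq table that lay on chromosomes 1 to 19. In ATAC-seq a transposase inserts sequencing adapters where DNA is not covered by nucleosomes, so the count in a peak measures how accessible that stretch was. The 88965 peaks on these chromosomes were taken from 90823 in all, and 87515 of them had enough counts to be tested. Organoids are epithelial cultures grown from crypts, here embedded in Matrigel with EGF, Noggin, R-spondin and the GSK3 inhibitor CHIR-99021, so the vehicle cultures were also under Wnt stimulation. The treated cultures received 50 nM PGE2 and the control cultures vehicle, both for 3 days, with 2 libraries a group. A further group with 2 libraries received 25 µM arachidonic acid (AA), the fatty acid from which prostaglandins are made, and shared the model but enters the results only where named. Epithelial cells were sorted before the Omni-ATAC reaction. The design text names a dimethyl analogue where the treatment protocol names PGE2, so the compound is given as labelled. The labels give no genotype, and they do not say whether the libraries of a group came from separate cultures, so p-values measure only the spread between these libraries, which may be technical.

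PGE2 acts on 4 G-protein coupled receptors, encoded by Ptger1 to Ptger4. The EP2 and EP4 receptors raise cyclic AMP through the stimulatory G protein, cyclic AMP releases the catalytic subunits of protein kinase A, and the kinase phosphorylates CREB, which binds the cyclic AMP response element in target promoters. Phosphodiesterases end the signal. In the gut epithelium PGE2 is known for fluid secretion, for the survival and growth of crypt cells after injury, and for a wound-associated state. Promoters of vertebrate genes fall broadly into those rich in the CpG dinucleotide, which are common at widely expressed genes, and those poor in it, which are common at tissue-specific genes.

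Library totals ran from 12374232 to 14236985 counts, and the median count of a peak was 57 to 66. The chi-square per degree of freedom between the libraries of a group was 1.10 for vehicle and 1.55 for PGE2, where 1 is counting noise alone. The PGE2 libraries therefore differed more from each other than the vehicle libraries did. The peaks of epithelial marker genes were open: the start-site peak of Krt8 held 83.7 and 84.3 CPM in vehicle (counts per 1000000 counts of the scaled library), that of Vil1 78.9 and 76.4 CPM, and that of Cdx2 64.0 and 64.8 CPM. Of the stromal, immune and endothelial markers only Vim, Kdr and Cd68 had a peak at a start site; the largest, at Cd68, held 20.8 and 21.2 CPM in vehicle and 22.4 and 24.7 CPM with PGE2, and it was not called, though on a scale set within CpG classes of promoters it was higher (log2 0.27). A peak at the transcript end of Itgam, an immune marker, was called higher (log2 0.34).

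The peaks that changed at gene starts differed in their DNA. The sequences below are the 250 bases upstream of the start site (RefSeq, GRCm38.p6), written 5′ to 3′ on the strand of the gene, with every CpG in capitals. The first 3 are promoters whose peaks were among the most clearly higher with PGE2, and the next 3 among the most clearly lower. They are Stt3b (chr9:115310469-115310718, minus strand), Pdia3 (chr2:121413652-121413901, plus strand) and Zfp664 (chr5:124862455-124862704, plus strand), then Lmcd1 (chr6:112273508-112273757, plus strand), Tfpi2 (chr6:3988859-3989108, minus strand) and Ces1b (chr8:93080018-93080267, minus strand). The 3 promoters that rose hold 26, 34 and 28 CpG in these bases, and the 3 that fell hold 7, 2 and 2. The promoters of Lrat and Chrm3, also among the lower peaks named and not shown, hold 18 and 10.
Stt3b: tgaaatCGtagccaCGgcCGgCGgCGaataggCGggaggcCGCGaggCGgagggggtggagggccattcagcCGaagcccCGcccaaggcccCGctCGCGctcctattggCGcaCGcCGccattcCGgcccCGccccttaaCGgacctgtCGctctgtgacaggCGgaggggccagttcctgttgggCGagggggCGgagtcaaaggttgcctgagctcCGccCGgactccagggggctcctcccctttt
Pdia3: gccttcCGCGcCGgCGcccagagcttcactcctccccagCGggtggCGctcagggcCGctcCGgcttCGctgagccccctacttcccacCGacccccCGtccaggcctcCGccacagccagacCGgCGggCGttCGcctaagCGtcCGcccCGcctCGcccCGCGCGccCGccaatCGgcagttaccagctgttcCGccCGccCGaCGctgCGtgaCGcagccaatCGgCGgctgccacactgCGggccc
Zfp664: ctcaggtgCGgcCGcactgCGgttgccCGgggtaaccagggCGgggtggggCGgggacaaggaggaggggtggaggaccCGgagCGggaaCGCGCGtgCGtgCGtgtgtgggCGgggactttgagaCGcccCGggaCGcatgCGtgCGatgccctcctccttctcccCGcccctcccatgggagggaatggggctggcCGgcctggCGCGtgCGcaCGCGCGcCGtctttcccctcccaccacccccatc
Lmcd1: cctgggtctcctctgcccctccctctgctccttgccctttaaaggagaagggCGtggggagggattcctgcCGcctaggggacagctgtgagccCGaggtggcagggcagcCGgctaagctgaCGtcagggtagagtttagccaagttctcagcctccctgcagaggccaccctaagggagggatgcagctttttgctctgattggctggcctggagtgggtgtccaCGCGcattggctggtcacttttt
Tfpi2: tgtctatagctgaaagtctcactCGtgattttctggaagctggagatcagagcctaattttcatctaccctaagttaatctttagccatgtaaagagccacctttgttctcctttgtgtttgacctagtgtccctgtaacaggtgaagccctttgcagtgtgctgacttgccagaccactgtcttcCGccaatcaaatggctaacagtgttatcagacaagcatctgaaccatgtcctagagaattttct
Ces1b: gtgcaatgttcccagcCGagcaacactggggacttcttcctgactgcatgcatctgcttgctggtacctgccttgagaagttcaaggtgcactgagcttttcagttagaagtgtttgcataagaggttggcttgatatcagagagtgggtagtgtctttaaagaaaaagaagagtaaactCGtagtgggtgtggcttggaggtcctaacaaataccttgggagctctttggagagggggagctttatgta

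Peaks near gene ends and distal peaks moved differently with PGE2. Peaks centred no more than 1 kb from the first or last annotated base of a coding gene were counted as gene-end peaks, and all others as distal. A peak is said to be called higher or lower where edgeR's quasi-likelihood test gave a Benjamini-Hochberg adjusted p under 0.05 over all tested peaks of the table. Of the 14083 gene-end peaks tested 4571 (32.5%) were higher and 742 (5.27%) lower. Of the 73432 distal peaks 8044 (11%) were higher and 8505 (11.6%) lower. Over both classes 14.4% were higher and 10.6% lower. The median log2 change was 0.14 at gene ends and −0.03 at distal peaks. Changes of at least 2-fold were called at 371 higher and 58 lower of the 14083 gene-end peaks, and at 2065 and 1225 of the 73432 distal peaks. Relative to class size such gains were about equally common in both classes, and such losses were rarer at gene ends. The share of a library's counts that fell in gene-end peaks was 31.8% and 31.3% for vehicle, and 34.2% and 35.7% for PGE2. The groups did not overlap, and the difference was 3.40 percentage points; the exact two-sided permutation test gave p = 0.333, the smallest that 2 libraries against 2 allow.

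**Figure D1:**
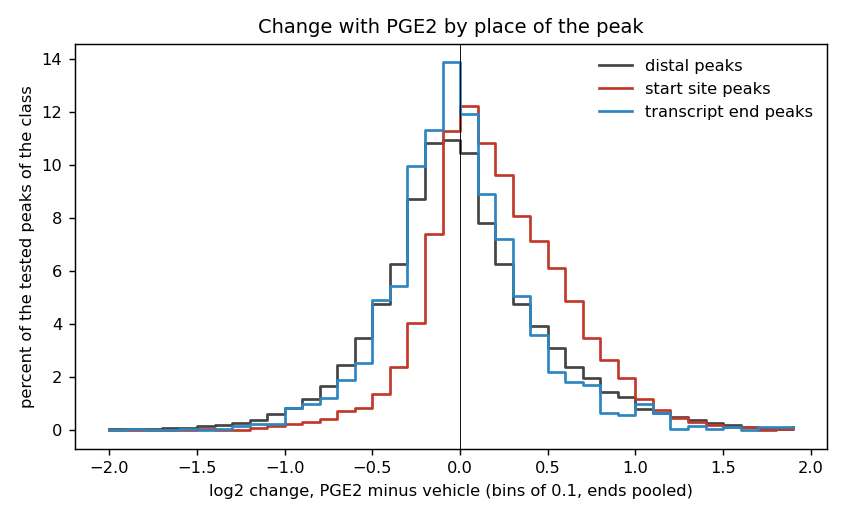
Share of tested peaks (percent, vertical axis) by log2 change between PGE2 and vehicle (horizontal axis, bins of 0.1), for distal, transcript-end and start-site peaks. The curve for start-site peaks is shifted to the right with a median of 0.18, and those for distal and transcript-end peaks both have a median of −0.03.

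These counts depend on how the libraries are put on 1 scale, because a class that gains counts makes the rest look lower. With library totals as the scale, distal peaks split into 7053 higher and 10788 lower, and with gene-end and distal peaks scaled apart into 9032 (12.3%) and 7722 (10.5%). Gene-end peaks then split into 2919 higher (20.7%) and 2708 lower (19.2%), so that the excess of higher calls there is a statement relative to distal peaks. Fewer peaks passed with DESeq2, 2654 higher and 1926 lower at distal peaks and 2601 and 123 at gene ends. Without vehicle replicate 1 the distal counts were 4635 and 5517 and the gene-end counts 3454 and 408, and without vehicle replicate 2 they were 5246 and 4873, and 2956 and 380. On a scale common to both classes the gene-end median lay 0.17 above the distal one, and with the classes scaled apart the medians were −0.03 and −0.01. The difference on the common scale was 0.14 in PGE2 replicate 1 and 0.20 in PGE2 replicate 2 against the vehicle mean.

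The gain at gene ends lay at the start, not at the far end of the transcript. With the strand of each gene taken from the RefSeq promoter table, 9692 tested gene-end peaks lay at a start and 1693 at a transcript end. The other 2698 were of unknown strand, with 31.8% higher and 5.41% lower. Start-site peaks were higher at 3588 (37%) and lower at 466 (4.81%), with a median log2 change of 0.18. Without vehicle replicate 1 the start-site counts were 2728 and 245, without vehicle replicate 2 they were 2324 and 235, and DESeq2 gave 2094 and 70. Transcript-end peaks were higher at 125 (7.38%) and lower at 130 (7.68%), with a median of −0.03, the same as distal peaks. The share of counts in start-site peaks was 25.0% and 24.6% for vehicle, and 27.0% and 28.3% for PGE2. For transcript-end peaks it was 1.57% in either vehicle library, and 1.53% and 1.48% for PGE2. Against the vehicle mean the median start-site peak was 0.13 higher in PGE2 replicate 1 and 0.20 higher in PGE2 replicate 2, and 0.06 and 0.08 higher in the AA libraries. The start-site median lay above the distal median on all 18 chromosomes with such peaks, by 0.0957 to 0.284.

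The gain fell off within 2 kb of a start. Peaks centred 251 to 500 bp from a coding start were higher at 39.4%, those at 501 to 1000 bp at 28.0%, those at 1001 to 2000 bp at 11.2%, and those over 50 kb away at 12.3%. Starts inside a gene gave like values: of the 1893 tested distal peaks at a coding start over 1 kb from both ends of the gene, 32.4% were higher and 5.55% lower, with a median of 0.15. The 1825 peaks at starts of non-coding genes had a median of −0.04. Wide peaks were higher more often than narrow ones. Of start-site peaks of 175 to 300 bp 9.07% were higher and of those over 2 kb 60.3%, and of the 331 distal peaks over 2 kb 36.6% were.

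**Figure D2:**
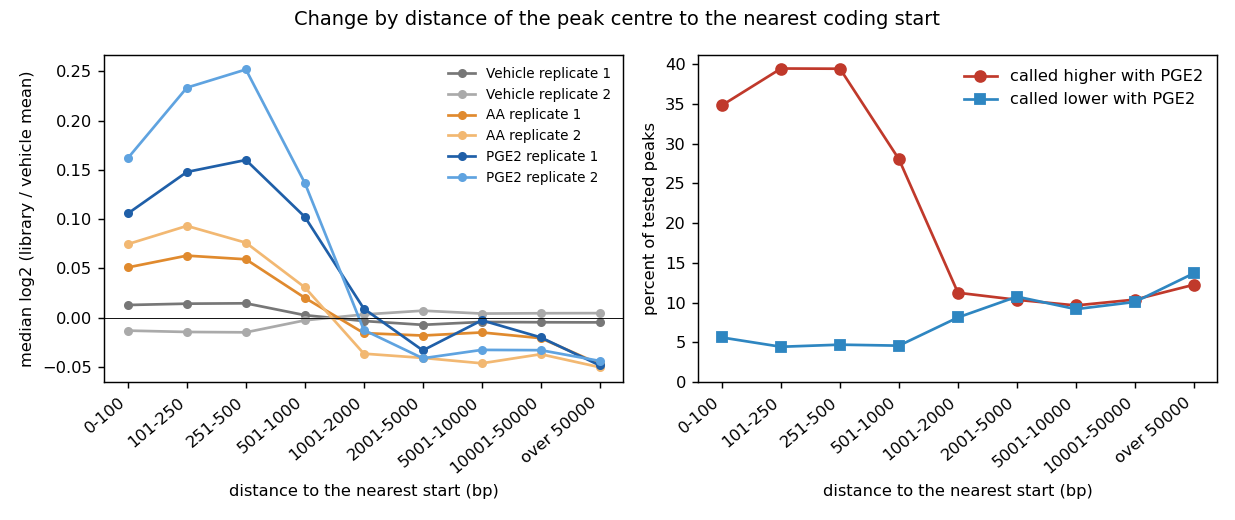
Left, median log2 ratio of each library to the vehicle mean by distance of the peak centre from the nearest coding start (classes in bp); right, percent of tested peaks called higher or lower with PGE2. Both PGE2 libraries lie above the vehicle and AA libraries within 1 kb of a start, and the share called higher drops from 28.0% at 501 to 1000 bp to 11.2% at 1001 to 2000 bp.

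The size of the change at a start followed the number of CpG in the promoter. CpG were counted in RefSeq windows from 250 bases before to 50 after a coding start, for the 9930 tested peaks within 1 kb of a window (8392 start-site peaks and 1538 at starts inside a gene). Of the 2327 peaks with 30 or more CpG, 1581 (67.9%) were higher and 4 (0.172%) lower, with a median of 0.51. Of the 3191 with 20 to 29 CpG 46.5% were higher and 2.0% lower, and of the 2799 with 10 to 19 CpG 23.4% and 5.72%. Of the 1613 with fewer than 10, 187 (11.6%) were higher and 261 (16.2%) lower, with a median of −0.09. Both PGE2 libraries showed the order. In the class with 30 or more CpG the median against the vehicle mean was 0.35 in PGE2 replicate 1 and 0.62 in PGE2 replicate 2, and 0.15 and 0.21 in the AA libraries. The share of counts in start-site peaks of that class was 5.18% and 5.02% for vehicle, 5.54% and 5.78% for AA, and 6.32% and 7.21% for PGE2. Among the peaks called higher 78.5% had 20 or more CpG, against 13.9% of those called lower.

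**Figure D3:**
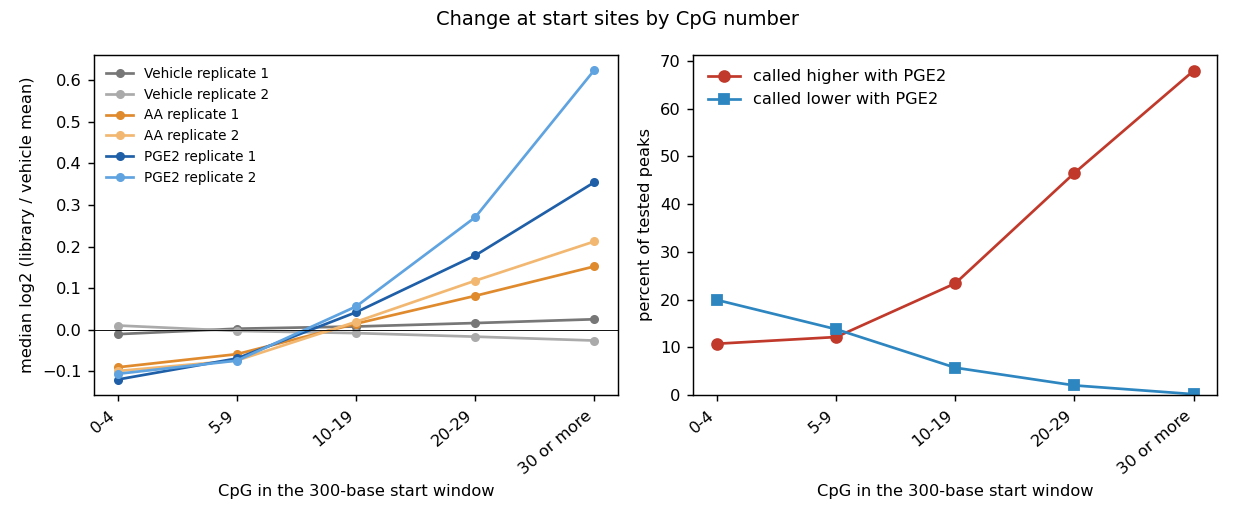
Left, median log2 ratio of each library to the vehicle mean by number of CpG in the 300-base promoter window; right, percent of peaks called higher or lower with PGE2. From the lowest to the highest CpG class the share called higher rises from 10.7% to 67.9% and the share called lower falls from 19.9% to 0.172%.

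The share called higher rose with CpG number also within classes of peak width and of GC content. Among peaks of up to 800 bp 41.9% of those with 20 or more CpG were higher against 9.01% of those with fewer than 10, and among peaks over 1200 bp 63.5% against 19.5%. At a GC content of 60 to 65% the share higher rose from 11.4% with fewer than 10 CpG to 24.6%, 40.5% and 55.6% in the higher classes. With 20 to 29 CpG it rose from 31.5% below 55% GC to 63.0% at 70% GC or more, so both measures moved with the change. A difference in how the libraries amplified GC-rich fragments was not tested. Starts of non-coding genes followed the same order: 9.04% of 918 were higher with fewer than 10 CpG and 35% of 123 with 20 or more. When start-site peaks were scaled apart from all others, 22.8% of them were higher and 21.5% lower, and when each CpG class was given its own scale, 19.2% and 15.6%.

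Of the 8 higher gene-end peaks named, 3 lay at genes that act in the endoplasmic reticulum: Stt3b, Rpn2 and Pdia3. Peaks were named by a rule on level, p and lack of overlap between groups, with function playing no part. At Stt3b, the catalytic subunit of an oligosaccharyltransferase, the start peak (chr9:115309608-115311439) held 35.8 and 36.9 CPM in vehicle and 75.6 and 87.5 CPM with PGE2, a log2 change of 1.16 (SE 0.07, adjusted p = 8.91e-13). Both PGE2 libraries lay far above both vehicle libraries. At Rpn2, another subunit of that enzyme complex, the start peak went from 28.3 and 30.2 CPM to 51.8 and 61.7 CPM, a log2 change of 0.96. At Pdia3, a disulfide isomerase of the endoplasmic reticulum, it went from 34.5 and 32.0 CPM to 59.8 and 69.9 CPM, also a change of 0.96. All 3 stayed higher when their CpG class had its own scale, at 0.67, 0.74 and 0.47.

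The other 5 lay at genes of several functions. Zfp131, a zinc finger protein, had the smallest p of the higher gene-end peaks named, with 29.6 and 29.7 CPM in vehicle and 57.3 and 61.9 CPM with PGE2 (log2 change 1.01, SE 0.07, adjusted p = 6.74e-14). Zfp664, of the same family, went from 18.8 and 17.5 CPM to 39.1 and 44.3 CPM. At Pik3r1, the regulatory subunit of phosphoinositide 3-kinase, the log2 change was 0.90 and became 0.41 on the scale of its CpG class. At Kpnb1, an importin of the nuclear pore pathway, it was 0.63 and became 0.14, so most of the change there was shared with other promoters of that class. Ube2d2a, a ubiquitin-conjugating enzyme, had the largest change of the 8, from 14.2 and 13.7 CPM to 31.1 and 39.7 CPM (log2 1.34).

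The lower gene-end peaks named lay at regulators, enzymes and a receptor. At Lmcd1, a LIM-domain regulator of transcription, the start peak (chr6:112273451-112275164) held 65.9 and 67.6 CPM in vehicle and 31.3 and 33.0 CPM with PGE2, a log2 change of −1.05 (SE 0.07, adjusted p = 8.78e-15). It had the smallest p of all gene-end peaks named, and the groups were far apart. Lrat, which esterifies retinol, fell from 64.1 and 60.1 CPM to 39.8 and 38.7 CPM. Ces1b, a carboxylesterase, fell from 16.8 and 17.3 CPM to 7.48 and 8.41 CPM. In both of these the PGE2 libraries lay below both vehicle libraries, which the naming rule required. Tfpi2, a serine protease inhibitor, fell from 15.8 and 15 CPM to 6.94 and 6.40 CPM. Chrm3, the M3 muscarinic acetylcholine receptor, fell from 19.3 and 21.7 CPM to 9.31 and 10.6 CPM. At the immediate early gene Jun the peak that fell lay 591 bp from the transcript end, with 29.8 and 35.8 CPM in vehicle and 13.6 and 14.5 CPM with PGE2. At Egr1, another such gene, the log2 change was −0.92.

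**Figure D4:**
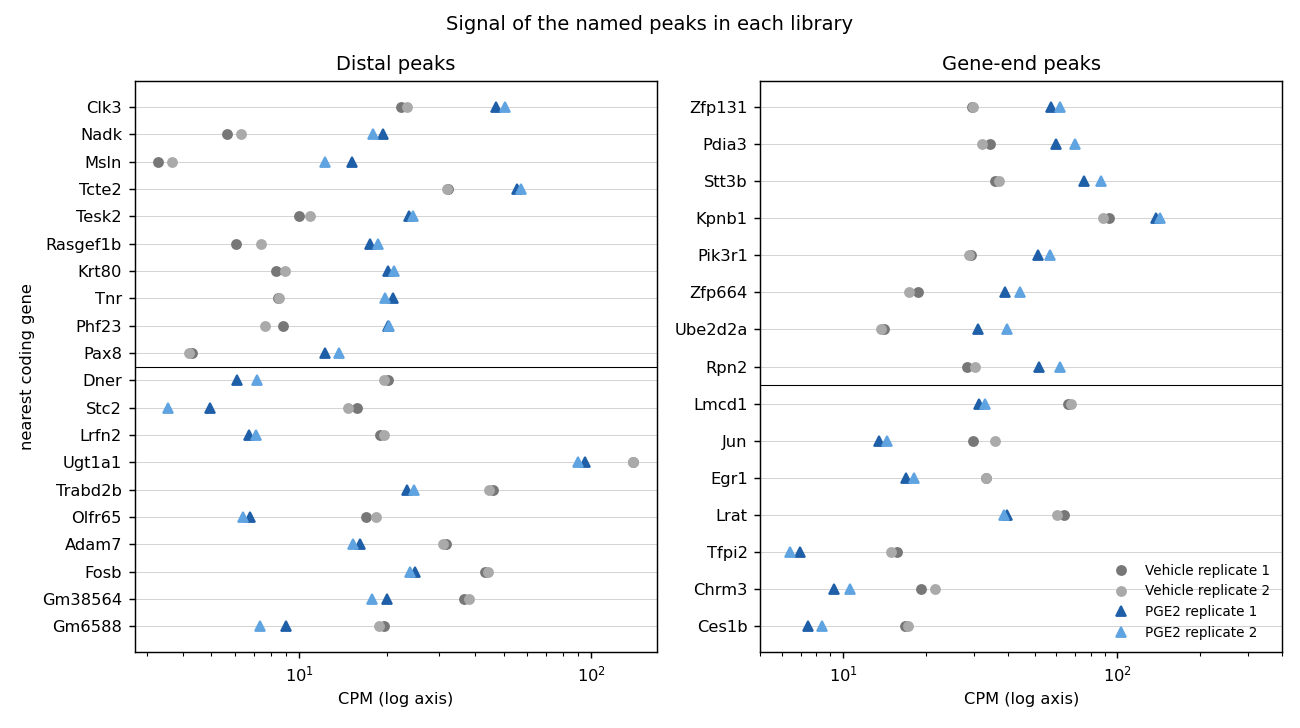
CPM (log axis) in each vehicle library (circles) and each PGE2 library (triangles) at peaks the rule named, by nearest coding gene; left distal, right gene end, with higher peaks above the line and lower peaks below it. In every row the 2 PGE2 libraries lie on the same side of the 2 vehicle libraries, which the rule required.

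Short letter patterns of known factors were searched on both strands of the 9930 windows, 16 in all, and their matches are descriptions of letters and not of binding. The GC box GGGCGG, found in 47.0% of all 20085 RefSeq promoters of this length, was found in 66.9% of the windows. Peaks with it were higher at 46.5% and those without at 24.9%, but among windows with 10 to 19 CpG the shares were 23.9% and 22.6%. The cyclic AMP response element TGACGTCA, in 2.30% of all promoters, gave 41.7% with and 39.3% without, but 15.9% and 23.6% at 10 to 19 CpG. In windows with fewer than 10 CpG the share called higher was 20.8% with the AP-1 letters TGANTCA (7.06% of all promoters) and 10.2% without. The order was the reverse over all windows, 31.5% and 39.8%, and at 10 to 19 CpG, 18.7% and 23.7%. The YY1 letters AAGATGG (6.29% of all promoters) gave 20.2% and 11.1% below 10 CpG, and 23.9% and 23.4% at 10 to 19 CpG. In windows with fewer than 10 CpG the share called lower was 23.1% with the HNF4 letters CAAAGTCC (1.44% of all promoters) and 16.0% without. It was 21.2% with the GATA letters AGATAA (9.57% of all promoters) and 15.3% without. Several other patterns gave like gaps there. The TATA box TATAAA gave 20.3% and 15.4%, and the TEAD letters GGAATG gave 19.4% and 15.6%. Windows with CCAAT, the NF-Y box (38.1% of all promoters), were higher at 33.4% against 43.1% without it. Below 10 CpG they were lower at 18.5% against 14.5%. The first 2 patterns hold a CpG themselves, and the sets with HNF4 letters are small (52 windows).

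At the starts of widely expressed gene groups most of the excess of higher over lower calls was gone on the scale of their CpG class. Such a scale removes any shift that the class shares. Of 51 start-site peaks of splicing factors 27 were higher and 0 lower (median 0.26), and on the scale of their CpG class 14 were higher and 10 lower (median −0.01). Of 34 at genes of the secretory pathway and the unfolded protein response 19 were higher and 1 lower, and 9 and 7 on that scale. Ribosomal proteins had 15 higher and 0 lower of 45, mitochondrial ribosomal proteins 13 and 0 of 47, and the proteasome 10 and 2 of 31, each beside 37% and 4.81% of all start-site peaks. Their shares higher, 33.3%, 27.7% and 32.3%, thus lay below that of all start-site peaks. On the CpG scale the counts were 5 and 6, 8 and 7, and 5 and 5. Subunits of the respiratory chain had 9 higher of 53 with a median of 0.03, and 3 higher and 14 lower on the CpG scale. Zinc finger proteins, with a median of 15 CpG, had 62 higher and 25 lower of 256, and on the CpG scale the balance turned to 29 and 50. Starts of the YAP and TEAD pathway had 9 higher and 0 lower of 13, and 7 and 1 on the CpG scale (median 0.23); at Ptpn14, a phosphatase that restrains YAP, the start held 6.66 and 6.03 CPM in vehicle and 13.9 and 17.3 CPM with PGE2 (log2 1.29).

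Genes of the fetal and regenerative epithelium were often higher at starts that are poor in CpG. This is the gene set that intestinal epithelium re-expresses in repair. Of its 16 start-site peaks 11 were higher and 0 lower, with a median of 0.42 at a median of 6 CpG, and on the CpG scale 9 were higher and 0 lower (median 0.37). With the classes scaled apart 7 were higher and 2 lower (median 0.24). DESeq2 called 5 of the 16 higher, and leaving out any 1 vehicle or PGE2 library gave 8 to 12. Among its windows with fewer than 10 CpG 7 of 9 were higher, against 11.6% of all such windows. The list was drawn up with earlier results of these data known, so its direction is a description. At Il1rn, the interleukin-1 receptor antagonist, the start peak (chr2:24336366-24337086) held 7.96 and 6.41 CPM in vehicle and 14.3 and 14.4 CPM with PGE2, a log2 change of 1.00 (SE 0.13). At Anxa10, an annexin, the start peak (chr8:62123092-62123772) went from 8.58 and 8.39 CPM to 14.7 and 15.4 CPM. The 250 bases upstream of both are shown because they hold 1 CpG each and the AP-1 letters TGANTCA, here in capitals. Of the 7 windows of the list that rose with fewer than 10 CpG, 5 hold these letters. Among all 1613 windows with fewer than 10 CpG 207 do. The 7 were taken because they rose and the 2 shown because they hold the letters, so the count is no test of the pattern. The bases shown lie at chr2:24336610-24336859 (Il1rn, plus strand) and chr8:62123194-62123443 (Anxa10, minus strand).
Il1rn: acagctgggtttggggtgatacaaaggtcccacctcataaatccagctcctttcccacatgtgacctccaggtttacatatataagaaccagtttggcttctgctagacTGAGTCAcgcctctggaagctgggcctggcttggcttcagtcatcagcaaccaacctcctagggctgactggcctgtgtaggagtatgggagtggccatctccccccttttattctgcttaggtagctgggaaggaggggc
Anxa10: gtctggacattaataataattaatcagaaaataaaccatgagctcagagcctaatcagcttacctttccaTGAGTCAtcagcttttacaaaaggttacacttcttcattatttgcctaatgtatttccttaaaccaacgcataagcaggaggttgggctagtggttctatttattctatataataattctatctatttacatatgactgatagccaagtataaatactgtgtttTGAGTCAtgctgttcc

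Other starts of the fetal list gave like values. At Anxa1, which encodes an anti-inflammatory annexin, a start peak went from 5.82 and 4.81 CPM to 12.9 and 13.6 CPM (log2 1.32, SE 0.14), and at Ecm1, an extracellular matrix protein, from 1.23 and 1.6 CPM to 3.43 and 3.24 CPM. S100a6, a calcium-binding protein, went from 15.5 and 17.2 CPM to 25.0 and 23.7 CPM, and Sprr1a, a cornified-envelope protein, from 6.97 and 8.54 CPM to 10.5 and 12.5 CPM. The groups did not overlap at any of these, which holds for 72.3% of all tested start-site peaks and for 99.95% of those called. Smaller rises were called at the peak over the listed start window of Anxa1 (chr19:20390448-20390878, log2 0.48) and at that of Cldn4 (log2 0.30). Some members were not called. The start of Emp1 had a log2 change of 0.02 and that of Il33 of −0.51 (adjusted p = 0.109), neither called, and the larger gene-end peak of Clu held 26.1 and 24.0 CPM in vehicle and 28.5 and 25.0 CPM with PGE2.

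Distal peaks of the fetal list were higher more often than lower. Of 119 tested 35 were higher and 2 lower, with a median of 0.21 beside −0.03 for all distal peaks, of which 11% were higher and 11.6% lower. DESeq2 called 20 higher and 1 lower, and leaving out any 1 vehicle or PGE2 library gave 27 to 31 higher and 1 to 7 lower, the 7 without PGE2 replicate 1. At Msln, mesothelin, both distal peaks were higher, the larger (chr17:25755948-25757384) from 3.29 and 3.66 CPM to 15.1 and 12.2 CPM (log2 1.97, SE 0.15). At Anxa1 6 of 9 were higher and none lower, with values such as 5.44 and 5.57 CPM in vehicle and 11.1 in either PGE2 library. At Il1rn 4 of 7 were higher, at Anxa3 3 of 4, and at Il33 3 of 5, although the start of Il33 was not called. At Ly6a, the stem cell antigen Sca-1 of repairing epithelium, 2 of 3 were higher, one from 22.0 and 23.4 CPM to 37.0 and 35.5 CPM. Areg, Anxa2 and Clu had no distal peak called.

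Crypt stem cell genes showed the opposite balance. At their distal peaks 17.1% were lower and 7.97% higher, beside 11.6% and 11% of all distal peaks. Of 251 distal peaks 43 were lower and 20 higher (median −0.11), DESeq2 called 12 lower and 6 higher, and without vehicle replicate 2 the counts were 24 and 13. All 7 distal peaks of Olfm4, a marker of crypt base columnar cells, fell, by 0.46 to 1.49 on the log2 scale. The one with the smallest p held 16.6 and 16.3 CPM in vehicle and 6.33 and 8.33 CPM with PGE2, and the start peak went from 12.4 and 12.3 CPM to 7.71 and 6.40 CPM. Smoc2, a matricellular stem cell marker, had 4 of 13 lower and none higher, and Aqp4 4 of 10 lower and 1 higher. Cd44, an adhesion receptor and Wnt target, went the other way with 4 of 14 higher, the strongest from 39.5 and 41.4 CPM to 50.4 and 51.3 CPM. On the CpG scale the distal counts of the whole list were 35 lower and 25 higher. At their starts 8 of 16 stem cell peaks were higher and 2 lower, but 1 and 3 on the CpG scale.

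Transcription factors that set intestinal identity were lower more often than higher at distal peaks. The shares were 18.9% and 6.69%, beside 11.6% and 11% over all distal peaks. Of 254 peaks 48 were lower and 17 higher (median −0.11), DESeq2 called 13 and 5, and the counts were 36 and 6 without vehicle replicate 1 and 30 and 13 without vehicle replicate 2. Hnf4g, a nuclear receptor of the enterocyte, had 5 of 11 lower, among them one at 37.8 and 39.4 CPM in vehicle and 28.2 and 31.3 CPM with PGE2. Vdr, the vitamin D receptor, had 5 of 15 lower, and Rxra, its partner, 7 of 20 lower and 1 higher. Hnf4a had 3 of 13 lower and Nr1h4, the bile acid receptor, 4 of 15, both with none higher. At Gata4 a peak went from 9.88 and 8.47 CPM to 4.04 and 4.78 CPM (log2 −1.05, SE 0.16), while 2 other peaks of that gene rose. Klf5, a factor of crypt cells, held a peak that rose from 4.29 and 4.20 CPM to 9.31 and 8.56 CPM. The changes at these factors were mostly small, and at their starts 2 of 13 rose and 0 fell.

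Absorptive enterocyte genes had 29 distal peaks lower and 18 higher of 182 (median −0.08), and 7 start-site peaks lower and 3 higher of 25. All distal peaks were lower at 11.6% and higher at 11%. The distal counts were 20 lower and 21 higher on the CpG scale and 25 and 20 with the classes scaled apart, so their direction depends on the scale. Without vehicle replicate 1 the distal counts were 16 and 6, without vehicle replicate 2 they were 16 and 12, and DESeq2 gave 7 and 2. The lower starts numbered 3 without vehicle replicate 2, 4 without PGE2 replicate 1 and 1 with DESeq2. At Fabp1, the liver-type fatty acid binding protein, 2 of 3 distal peaks fell, one (chr6:71184736-71185670) from 19.7 and 19.5 CPM to 10.1 and 9.88 CPM (log2 −0.97, SE 0.11) and the other from 11.5 and 11.7 CPM to 5.88 and 5.25 CPM. Sis, sucrase-isomaltase, had 3 of 7 lower, and Slc5a1, the sodium-glucose transporter, 3 of 11. The start of Mep1a, a brush border protease, fell from 46.9 and 46.7 CPM to 34.2 and 33.6 CPM. Ezr, which links the brush border to actin, rose instead, at its start from 25.6 and 26.2 CPM to 43.1 and 44.2 CPM and at 5 of 16 distal peaks. PPAR targets and genes of fat oxidation had 22 lower and 11 higher of 114 distal peaks (median −0.12), 13 and 8 without vehicle replicate 1, 10 and 6 without vehicle replicate 2 and 5 and 4 with DESeq2. At Pdk4, which restrains pyruvate oxidation, a distal peak went from 12.9 and 13.7 CPM to 8.55 and 6.71 CPM. Its start went from 11.9 and 12.1 CPM to 5.42 and 5.63 CPM (log2 −1.11, SE 0.14). Ppara, the fatty acid receptor itself, had 7 of 15 lower and 1 higher.

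Proliferation and replication genes had 20 distal peaks higher and 4 lower of 113 (median 0.10), 13 and 2 without vehicle replicate 2 and 7 and 1 with DESeq2. Over all distal peaks 11% were higher and 11.6% lower. All 4 distal peaks of Tyms, thymidylate synthase, were higher, the clearest from 3.06 and 2.29 CPM to 7.86 and 6.94 CPM. Ccnd1, cyclin D1, had 3 of 8 higher, one from 26.3 and 27.5 CPM to 44.6 and 39.7 CPM, and Cdk6, its kinase, 5 of 18. Genes of the YAP and TEAD pathway had 17 higher and 5 lower of 116, with 4 of 18 at Tead1 and 3 of 13 at Tead4, the DNA-binding partners of YAP. YAP targets had 7 and 8 of 63; at Ccn1 a peak rose from 3.37 and 3.36 CPM to 8.70 and 7.02 CPM, and at Crim1 one fell from 53.4 and 53.8 CPM to 39.0 and 34.5 CPM. Wnt targets had 20 and 19 of 189, and 24 and 12 with the classes scaled apart, and basement membrane and integrin genes had 29 and 19 of 177.

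**Figure D5:**
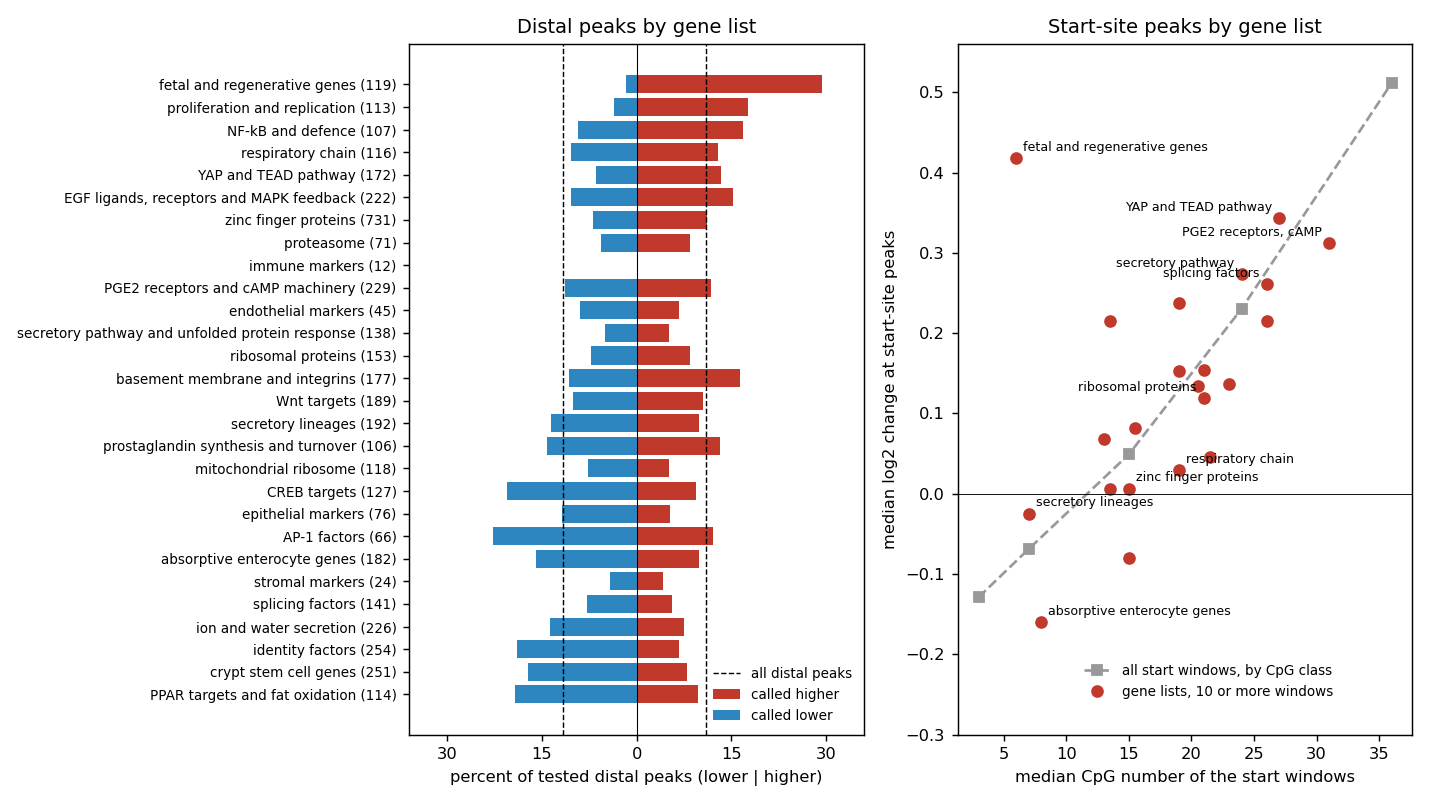
Left, percent of tested distal peaks called higher (right of 0) and lower (left of 0) with PGE2 for each gene list, number of peaks in parentheses, with dashed lines at 11% and 11.6% for all distal peaks. Right, median log2 change at start-site peaks against the median CpG number of the list, with the medians of all windows by CpG class; the fetal list lies at 0.42 with 6 CpG, far above the dashed line.

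The pathway of the ligand itself was followed by role. Of the 10 distal peaks at the 4 receptor genes 5 were lower and 1 higher. At Ptger4, the EP4 receptor, 2 of 4 fell, one (chr15:5260136-5260898) from 19.4 and 16.9 CPM to 12.4 and 12.7 CPM (log2 −0.54, SE 0.11, adjusted p = 0.000204) and one from 7.12 and 6.33 CPM to 4.81 and 3.24 CPM. Its start held 74.7 and 74.6 CPM in vehicle and 67.5 and 68.1 CPM with PGE2, a log2 change of −0.14 that was not called (adjusted p = 0.067). It was called lower with library totals (−0.18), with the classes scaled apart (−0.31) and on the CpG scale (−0.35). At Ptger3, the EP3 receptor, which lowers cyclic AMP, both distal peaks fell, one from 16.9 and 15.8 CPM to 10.1 and 9.49 CPM. Ptger2, the EP2 receptor, had 1 higher and 1 lower of 3, and Ptger1 had no peak called. These are small numbers, and over the whole cyclic AMP list the counts of 27 higher and 26 lower became 14 and 11 without vehicle replicate 1, 21 and 13 without vehicle replicate 2, 17 and 16 without PGE2 replicate 2 and 7 and 4 with DESeq2. Stimulatory G protein and adenylyl cyclase genes had 10 of 47 distal peaks higher and 0 lower (median 0.18), beside 11% and 11.6% of all distal peaks. Within 10 kb it was 2 of 14, with a median of −0.01, so most of the higher peaks lay farther away. Gnas, the stimulatory alpha subunit, had 4 of 8 higher, one from 4.44 and 3.97 CPM to 7.86 and 8.02 CPM, and Adcy9, a cyclase, 2 of 17, one from 11.3 and 13.7 CPM to 19.7 and 26.0 CPM.

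At kinase, Epac and phosphodiesterase genes the shares called were near or below those of all distal peaks, 11% higher and 11.6% lower. Kinase and Epac genes had 8 higher and 8 lower of 73 distal peaks, and phosphodiesterases 4 and 7 of 64. Transcription factors of the pathway had 4 higher (11.4%) and 6 lower (17.1%) of 35. At their gene ends 7 of 10 were higher and 0 lower, and 3 and 1 on the CpG scale. Over all gene-end peaks 32.5% were higher and 5.27% lower. Subunits of protein kinase A parted: Prkar2b had 3 of 8 higher and a start that rose from 4.06 and 2.59 CPM to 6.94 and 9.49 CPM (log2 1.30, SE 0.21), and all 3 distal peaks of Prkar1b fell. At Prkaca, the catalytic subunit, the start rose from 46.0 and 38.3 CPM to 50.4 and 60.9 CPM (log2 0.40), and the change was −0.09 on the CpG scale, where it was not called. The starts of 2 cyclic AMP phosphodiesterases fell, Pde8b from 12.2 and 12.8 CPM to 6.94 and 6.87 CPM (log2 −0.85) and Pde7b from 7.58 and 6.26 CPM to 4.88 and 3.01 CPM (log2 −0.81). Over all 6 gene-end peaks of phosphodiesterases, starts included, 3 were higher and 2 lower (median 0.35). The start of Creb1 had a log2 change of 0.52, and of 0.03 on the CpG scale, where it was not called. A distal peak inside Creb1 (chr1:64601382-64601940) rose from 1.30 and 2.14 CPM to 5.72 and 6.64 CPM (log2 1.84, SE 0.22, adjusted p = 2.27e-08).

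CREB targets had 26 distal peaks lower and 12 higher of 127, and AP-1 factors 15 and 8 of 66. These were 20.5% and 9.45%, and 22.7% and 12.1%, beside 11.6% and 11% of all distal peaks. With peaks assigned within 10 kb in place of 50 kb the counts were nearly even, 12 lower and 10 higher for CREB targets and 7 and 6 for AP-1 factors, and on the CpG scale AP-1 factors had 12 and 11. Without vehicle replicate 1 the CREB target counts were 16 and 8, without vehicle replicate 2 they were 13 and 9, and DESeq2 gave 8 and 5. The AP-1 counts were 7 and 4 without vehicle replicate 2, and 5 each with DESeq2. Per2, a clock gene, had 6 of 11 lower and none higher, one from 78.2 and 79.0 CPM to 62.6 and 61.5 CPM. Fosb and Fos, immediate early genes, had 3 of 7 and 4 of 12 lower; the peak beside Fosb (chr7:19300539-19302390) went from 43.3 and 44.2 CPM to 24.9 and 24.0 CPM (log2 −0.84, SE 0.08, adjusted p = 6.13e-11). Junb, of the same family, had its 1 distal peak higher, from 53.1 and 50.7 CPM to 69.2 and 73.6 CPM. Some genes, Fos and Fosb among them, stand in both lists.

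Among the genes that make and clear prostaglandins, Ptgs2, the inducible cyclooxygenase, rose. Its start went from 3.37 and 3.13 CPM to 5.34 and 5.48 CPM (log2 0.73, adjusted p = 0.00354), and 2 of 4 distal peaks were higher, one (chr1:150115296-150115918) from 3.29 and 4.20 CPM to 8.24 and 8.56 CPM (log2 1.16, SE 0.17). Neither Ptgs1, the constitutive enzyme, nor Ptges, a PGE2 synthase, had a distal peak called. Slco2a1, the prostaglandin uptake carrier, had 6 of 15 lower and 2 higher, one of the former from 20.7 and 20.1 CPM to 13.5 and 13.4 CPM. Hpgd, which inactivates PGE2, had 2 of 15 lower and 1 higher, and Abcc4, an exporter, 6 of 26 higher. Over the synthesis genes 5 of 39 distal peaks were higher and 4 lower, close to the share over all distal peaks.

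The distal peaks with the smallest p rose at genes of many functions. The first was inside Clk3, a kinase of splicing factors (chr9:57764295-57766121), with 22.2 and 23.3 CPM in vehicle and 47.0 and 50.5 CPM with PGE2 (log2 1.10, SE 0.08, adjusted p = 3.54e-13). It lay 1027 bp from the end of the gene but 94 bp from a listed start, so it resembles the start-site peaks, as does that at Phf23, 240 bp from one. Away from starts, a peak inside Nadk, NAD kinase, went from 5.67 and 6.33 CPM to 19.3 and 17.9 CPM (log2 1.63), and one inside Tesk2, a kinase of the actin regulator cofilin, from 9.95 and 10.8 CPM to 23.7 and 24.5 CPM. Peaks near Krt80, an epithelial keratin, and inside Pax8, a developmental transcription factor, rose by 1.25 and 1.61. Tcte2, Rasgef1b and Tnr completed the 10, with log2 changes of 0.81, 1.42 and 1.25.

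Of the 10 lower distal peaks named the largest changes were near Stc2, a secreted glycoprotein hormone, from 15.8 and 14.6 CPM to 4.96 and 3.55 CPM (log2 −1.83, SE 0.15), and near Dner, a Notch ligand, from 20.1 and 19.5 CPM to 6.10 and 7.18 CPM (log2 −1.58, SE 0.13). The peak with the most counts of the 10 lay inside Ugt1a1, which conjugates bilirubin, with 138 and 139 CPM in vehicle and 94.9 and 90.0 CPM with PGE2 (log2 −0.58, SE 0.05). Near Trabd2b, a protease that inactivates Wnt proteins, a peak went from 46.0 and 44.6 CPM to 23.4 and 24.6 CPM. Lrfn2 and Adam7 gave −1.47 and −1.0. Distal peaks are named by the closest gene, and whether they act on it was not tested.

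At some genes most distal peaks were called in the same direction. The genes named were taken for the largest shares, and over all distal peaks 11% were higher and 11.6% lower. How many such genes these overall shares alone would give was not tested. Of 3347 genes with at least 6 tested distal peaks within 50 kb, 68 had 50% or more of them higher and 83 had 50% or more lower, 900 had calls in both directions and 560 had none. Cldn18, a tight junction claudin of gastric and lung epithelium, was the 1 gene with every peak higher, 6 of 6 with changes of 0.75 to 1.70. Olfm4 was the 1 gene with every peak lower. Ggta1, a galactosyltransferase, had 7 of 10 higher, Stn1, a telomere protein, 8 of 12, and Tekt3 8 of 9. Esrrg, an orphan nuclear receptor of oxidative metabolism, had 6 of 8 lower with a median of −1.05, Slc6a4, the serotonin transporter, 5 of 6, Epb41l3, a membrane skeleton protein, 8 of 10, and Lrig3 10 of 14. Adamts16, a secreted metalloprotease, had 9 of 12 lower and 1 higher, and Pdgfa, a growth factor, 9 and 2 of 12. At each gene named here the median change with AA against vehicle had the same sign. It was 1.36 at Cldn18 beside 1.13 with PGE2, −0.93 at Olfm4 beside −0.84, and −1.04 at Esrrg beside −1.05.

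The distal peaks of a gene were also set beside its start. At the 358 genes with a start called lower, 21.5% of 1359 distal peaks were lower and 5.59% higher. At the 2820 genes with a start called higher 10.7% of their distal peaks were higher and 9.14% lower, beside 10.4% and 10% at the 3971 genes whose start was not called. Both kinds of call use the same libraries, so these shares are descriptions.

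Set directly against the AA libraries, PGE2 differed most at starts. In the contrast of PGE2 minus AA, 19% of start-site peaks were higher and 1.16% lower, and 2.61% of distal peaks were higher and 5.77% lower. With gene-end and distal peaks scaled apart 11.3% of start-site peaks were higher and 7.27% lower, so this excess too is relative to distal peaks. The peak inside Clk3 held 28.0 and 33.1 CPM with AA, between the vehicle and PGE2 values, and the start of Zfp131 38.0 and 39.5 CPM. At the fetal starts of Il1rn and Anxa10 the AA libraries held 17.0 and 18.1 CPM, and 20.0 and 21.5 CPM, above the PGE2 libraries. At the distal peak of Pdk4 they held 17.4 and 17.5 CPM, above vehicle where PGE2 lay below it, and at Fabp1 16.5 in either library, nearer to vehicle. The AA and PGE2 comparisons with vehicle share the vehicle libraries.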

How the data were processed

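Raw counts per consensus peak were made by the authors with featureCounts 1.6.3, per the file headers, on paired reads reduced to their 5′ ends, with no strand and with reads counted in every peak they overlap. Trim Galore, BWA, Picard, SAMtools and MACS2 are named in the submitters' processing notes without settings. Coordinates are mm10. Whether peaks were called per library or on pooled libraries is not given in the sources used here.

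From the deposited counts, edgeR 4.0.16 (R 4.3.3) was fitted over all 6 libraries, with TMM factors of 0.969 to 1.02, filterByExpr and a robust quasi-likelihood test of PGE2 minus vehicle. P-values were adjusted by Benjamini-Hochberg over 89347 peaks of the whole table, with a threshold of 0.05. CPM and log2 values were computed here from the deposited counts. The 3 residual degrees of freedom limit precision. The fit added a median of 42.3 prior degrees of freedom from the spread over all peaks, so small p-values rest mostly on shared spread. The 3 groups shared 1 estimate of spread, although the PGE2 libraries differed more from each other than the vehicle libraries did. Genes and strands came from RefSeq tables of GRCm38.p6, and each peak was assigned to the closest coding gene up to 50 kb away (79.8% of peaks). Gene-end peaks at genes with no promoter entry count as of unknown strand. They include those on chromosome 18, which had no entry at all, and many on other chromosomes.

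Named peaks were, in each direction, the 10 distal and 8 gene-end peaks with the smallest p among those with a mean log2 CPM of at least 3, no overlap between groups and the same call under library totals and with the classes scaled apart, 1 per gene; per list, the called peak with the smallest p in each class and direction; and 8 genes each with the largest share of at least 6 distal peaks called. Other peaks of list genes are named as examples, chosen after their values were seen. The comparison and the lists were chosen with earlier results of these data known. The 28 lists are described by counts and medians. The fitting script was tested on simulated data. DESeq2 1.42.0, other scalings, filters, windows, a replicate block and leaving out each library were tried as alternatives. The labels do not say whether replicate numbers pair the libraries, and the main fit did not pair them. The 1858 peaks on X and Y were left out, and some named peaks are not reported here.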

Additional observations from a re-analysis of the deposited data

How the results depend on the processing

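The balance of higher and lower calls depends on the scale and the tool. Distal peaks, with 8044 higher and 8505 lower, gave 8803 and 7477 with TMM from distal peaks alone, 9032 and 7722 with the classes scaled apart, and 7053 and 10788 with library totals. DESeq2 gave 2654 distal peaks higher and 1926 lower, 2601 gene-end peaks higher and 123 lower, and 2094 start-site peaks higher and 70 lower. With gene-end and distal peaks scaled apart, gene-end peaks gave 2919 higher and 2708 lower and start-site peaks 2313 and 1882. With start-site peaks scaled apart the gene-end counts were 2901 and 2724 and the start-site counts 2210 and 2084. With CpG classes scaled apart they were 2558 and 2130, and 1862 and 1515, and 658 windows with 30 or more CpG were higher in place of 1581. These last 2 scalings were chosen after seeing the data. Library totals gave 700 start-site peaks lower.

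Leaving out 1 library gave 4635 to 6826 distal peaks higher and 4873 to 6676 lower, 2956 to 5152 gene-end peaks higher and 380 to 603 lower, 2324 to 4065 start-site peaks higher and 235 to 387 lower, and 1089 to 1896 windows with 30 or more CpG higher. The group left with 1 library is assumed to vary like the others. The cause of these shifts was not tested, beyond the smaller number of libraries. The difference between the gene-end and distal medians was 0.144 to 0.203 under the settings that put both classes on 1 scale; with the classes scaled apart the medians were −0.03 and −0.01.

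With a replicate block 8147 distal peaks were higher and 8554 lower, 4828 gene-end peaks higher and 742 lower, 3797 start-site peaks higher and 468 lower, and 1729 windows with 30 or more CpG higher. The correlations between same-numbered libraries were 0.005, −0.020 and 0.036, so no pairing by number was seen across peaks as a whole. Whether same-numbered libraries shared a culture or batch is not given by the labels and was not tested.

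Of 1123 refits of the 125 named peaks 1077 kept their call, 46 did not pass and 0 changed sign. Of the 46, 18 came from DESeq2 and 6 from the CpG scaling (Creb1, Dusp1, Mafk, Spcs2, Hnrnph3 and Krt8). The named peaks were picked for a small p in the main fit. Those named by the rule also had to keep their call with library totals and with the classes scaled apart. Keeping the call was therefore largely fixed by the choice of peaks and says little about peaks in general. The median peak held 57 to 66 counts a library, which limits the precision of its value.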
